A study of Rattus norvegicus with 8 samples.

Results

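The nuclear genes of respiratory complexes II to V were examined in thigh skeletal muscle of rats. Members were the probes of an Illumina rat bead array whose platform gene symbol was Sdha, Sdhb, Sdhc, Sdhd, Cyc1, Cycs or Uqcc1, or began with Uqcr, Cox4, Cox5, Cox6, Cox7, Cox8 or Atp5. This gave 33 probes of 33 genes among the 22523 probes of the array: 4 of complex II, 5 of complex III with cytochrome c, 11 of complex IV and 13 of complex V. All 33 matched the rat reference annotation by gene identifier. That annotation holds 65 protein-coding genes under the same names, and the 32 with no probe of their name, among them Cyc1, Uqcc1, Cox7a1, Cox7a2, Cox4i2 and Cox6b1, were not analysed here. The exposed animals were 4 Wistar Han rats that ate feed with 150 ppm of compound 177, which the design text calls a sulfonyl isoxazoline, over 28 days. Their controls were 4 Wistar Han rats kept on standard laboratory chow for the same time. The labels give neither sex nor age, and name the muscle only as femoris. By its title, the series was made to model how such a compound harms mitochondria in muscle.

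These complexes sit in the inner mitochondrial membrane and carry out the later steps of oxidative phosphorylation. Complex II (succinate dehydrogenase) passes electrons from succinate to ubiquinone, complex III passes them on to cytochrome c, and complex IV (cytochrome c oxidase) hands them to oxygen. Complexes III and IV pump protons, and complex V (ATP synthase) uses the proton gradient to make ATP. Skeletal muscle expresses its own isoforms of several complex IV subunits, and the level of the whole system is known to differ between fibre types.

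The promoters of such genes are known targets of the transcription factors NRF1 and GABP, an ETS factor. The 250 bases before the transcription start were read from RefSeq (GRCr8) for the 29 members found there. The NRF1 letters, GCGC, any 2 bases and GCGC again, stood in 5 of these 29 promoters (17.2%), against 4.8% of all 33469 rat promoters, and the ETS letters CCGGAAG in 10 (34.5%), against 7.27%. Either was present in 14, and the share of all promoters with either was not counted. Atp5me was the 1 member of 29 with both, against 0.747% of all promoters, and the letters did not overlap there. The YY1 letters AAGATGGCG were found in 1 member (Atp5pf, 3.45%, against 0.693%), the CCAAT letters in 11 (37.9%, against 34%) and the TATAAA letters in 3 (10.3%, against 12.9%). All were searched on both strands. The median GC content of the members' promoters was 56.8%, against 51.2% over all promoters. The promoters used for comparison were not matched to the members for GC content, kind of gene or expression in muscle. A match is a description of the letters and does not show that a factor binds. Promoters are printed for members among the 3 smallest p of each complex that carry the NRF1 or ETS letters, which are in capitals, to show how the letters sit in each complex: NRF1 in Sdha and Atp5po, ETS in Sdhb, Uqcrh, Cox5b and Atp5mg. Cox8b, the muscle isoform of subunit 8, is shown as a promoter with neither. Coordinates are those of GRCr8, and each sequence reads 5′ to 3′ along the gene.
Sdha (chr1:30764303-30764552, + strand): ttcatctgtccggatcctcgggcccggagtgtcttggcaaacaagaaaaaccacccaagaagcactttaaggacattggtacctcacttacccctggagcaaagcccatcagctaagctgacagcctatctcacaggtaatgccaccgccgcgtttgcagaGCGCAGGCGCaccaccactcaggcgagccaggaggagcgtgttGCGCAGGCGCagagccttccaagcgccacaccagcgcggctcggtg
Sdhb (chr5:158547684-158547933, + strand): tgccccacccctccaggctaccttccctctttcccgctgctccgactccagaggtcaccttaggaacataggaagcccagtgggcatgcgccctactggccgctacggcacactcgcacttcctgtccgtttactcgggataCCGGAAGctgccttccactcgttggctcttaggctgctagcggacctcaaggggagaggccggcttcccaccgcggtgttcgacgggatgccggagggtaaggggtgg
Uqcrh (chr5:134790883-134791132, - strand): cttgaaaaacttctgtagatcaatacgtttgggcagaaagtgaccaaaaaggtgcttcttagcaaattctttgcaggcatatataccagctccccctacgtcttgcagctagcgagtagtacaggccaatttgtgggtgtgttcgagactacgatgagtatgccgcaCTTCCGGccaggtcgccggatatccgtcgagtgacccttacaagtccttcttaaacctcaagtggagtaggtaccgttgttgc
Cox5b (chr9:46417587-46417836, + strand): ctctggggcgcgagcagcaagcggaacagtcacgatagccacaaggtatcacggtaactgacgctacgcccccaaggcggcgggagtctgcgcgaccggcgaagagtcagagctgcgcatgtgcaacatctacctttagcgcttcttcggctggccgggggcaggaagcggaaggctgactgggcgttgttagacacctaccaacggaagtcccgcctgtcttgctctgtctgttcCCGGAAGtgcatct
Cox8b (chr1:205408274-205408523, - strand): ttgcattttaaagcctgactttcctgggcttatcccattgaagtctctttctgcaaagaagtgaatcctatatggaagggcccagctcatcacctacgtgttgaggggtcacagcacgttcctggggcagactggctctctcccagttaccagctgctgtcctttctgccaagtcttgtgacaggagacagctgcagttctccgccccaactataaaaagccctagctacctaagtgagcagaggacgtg
Atp5mg (chr8:54130408-54130657, - strand): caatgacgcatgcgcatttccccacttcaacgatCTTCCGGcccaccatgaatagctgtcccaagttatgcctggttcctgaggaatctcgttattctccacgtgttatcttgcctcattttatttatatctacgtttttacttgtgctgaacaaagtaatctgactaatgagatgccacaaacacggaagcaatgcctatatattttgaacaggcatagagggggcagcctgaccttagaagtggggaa
Atp5po (chr11:44657484-44657733, - strand): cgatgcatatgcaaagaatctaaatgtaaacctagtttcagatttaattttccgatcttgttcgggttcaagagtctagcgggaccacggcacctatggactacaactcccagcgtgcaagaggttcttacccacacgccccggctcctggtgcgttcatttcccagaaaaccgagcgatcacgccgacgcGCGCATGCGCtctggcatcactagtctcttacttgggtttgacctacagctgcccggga

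The microarray measured 1 RNA sample per rat, and replicates were taken as separate rats because the design text counts 4 in each group. Intensities were corrected and quantile-normalized together and taken to log2 (limma's neqc), so that a level is a log2 intensity and a difference of 1 is a doubling of signal. Levels are given per probe and are not set against those of another probe, since probes differ in how strongly they bind. Median intensity per array was 97.5 to 124.7, and 9261 to 10620 probes per array had a detection p below 0.05. The skeletal muscle markers Acta1, Ckm, Mb, Myh2, Myh4, Tnnt3 and Pvalb were all detected on 8 of 8 arrays. Of the brown fat markers, Ucp1 was detected on 0 arrays and Cidea on 6. Of the heart markers, Nppa was detected on 1 array, Myl7 on 3, Nppb on 6 and Myh6 on 8. Of the 33 members, 32 passed the filter of a detection p below 0.05 on at least 4 of 8 arrays, each of them on 8 of 8. Cox8c, the testis isoform of subunit 8, was above background on 0 arrays, with levels of 4.92 to 5.22 in compound 177 muscle and 5.0 to 5.33 in control muscle. In whole muscle a change in the number of fibres of a type and a change of RNA per fibre cannot be told apart.

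No member passed the test. With limma's moderated test and Benjamini-Hochberg adjustment over 10212 probes, 0 of 32 members and 0% of all tested probes had an adjusted p below 0.05, and the adjusted p of all 32 members was 0.9999. At an unadjusted p below 0.05 there were 0 of 32 members, against 3.88% of all tested probes (2.26% in the direction of a higher level). That count of members was 4 without the filter on dim probes (Atp5po, Cox5b, Atp5mc1 and Cox7b), against 954 of 22523 probes. It was 3 without compound 177 replicate 3 (Atp5mc1, Cox6c and Atp5pd), against 565 of 10212 probes. Without control replicate 4 it was 2 (Sdhb and Cox7b), against 486 of 10212. Atp5mc1 was the 1 member with no background correction or an offset of 50, against 441 and 432 of 10212 probes. Without control replicate 2 the 1 member was Cox6c, against 370 of 10212. In each of these settings 0 members had an adjusted p below 0.05. The smallest unadjusted p of a member was that of Atp5mc1, a gene of the ATP synthase c ring, at 0.0807 with limma. The 4 compound 177 values and the 4 control values did not separate fully for any member (0 of 32), against 2.41% of all probes (1.7% with compound 177 higher). What the members shared was a small offset: 28 of 32 were above control, against 53.4% of all tested probes, with a median difference of 0.14, or 1.10-fold, against 0.01 over all probes. All 4 compound 177 arrays lay above the control mean for 15 of 32 members, against 12.6% of all probes. For 10 members each compound 177 array was above the control of the same number, against 9.3% of all probes. These genes were measured in the same 8 RNA samples and are not independent of one another, so these shares describe the list and are not a test of it.

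By complex, the median offset ran from 0.08 to 0.19. The median difference was 0.19 for the 13 members of complex V (11 above control), 0.15 for the 10 of complex IV (10 above) and 0.14 for the 4 of complex II (4 above). It was 0.08 for the 5 of complex III with cytochrome c (3 above). Differences between complexes were not tested. A member's difference had a median standard error of 0.12, and its 95% confidence interval reached a median of 0.28 to either side, which is wider than the offset itself. Leaving aside Cox6c and Atp5mk, which varied more, the intervals of the other members lay between -0.42 (Uqcrc1) and 0.69 (Atp5pd). Most members gave bright signals, and 27 had a mean level of at least 12. Among these the median difference was 0.13, against 0.01 for the 667 other tested probes of such a level, a split chosen after the data were seen.

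**Figure D1:**
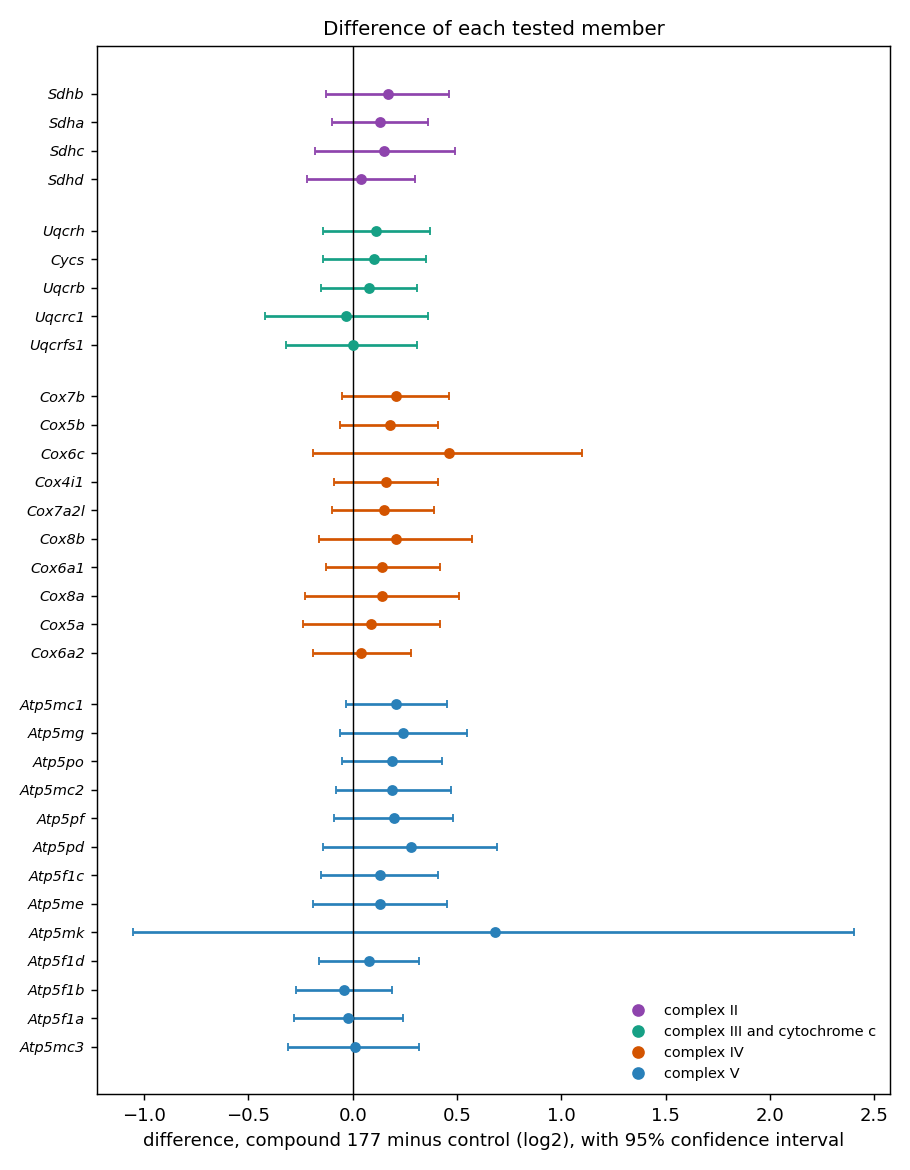
Difference of each of the 32 tested members, compound 177 minus control, on the log2 scale (x axis), ordered by complex and p (y axis), with bars for the 95% confidence interval from limma (n = 4 rats per group). Points of 28 members lie right of 0, every interval crosses 0, and Atp5mk has by far the widest one (-1.05 to 2.40).

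Complex II was measured completely. Sdha, the flavoprotein that oxidizes succinate, had levels of 12.62, 12.73, 12.72 and 12.74 in compound 177 muscle (replicates 1 to 4), against 12.47, 12.51, 12.59 and 12.73 in control muscle. All 4 compound 177 values were above the 3 lower controls, and the fourth control, replicate 4, lay level with the upper ones. The difference was 0.13 (95% CI -0.10 to 0.36). Sdhb, the iron-sulfur subunit that carries the electrons onward, was at 13.81, 13.75, 13.71 and 13.82 in compound 177 muscle, against 13.48, 13.56, 13.44 and 13.95 in control muscle. The same control array, replicate 4, was the highest of all 8, and the compound 177 values were close together (SD 0.05, against 0.23 in control). The difference was 0.17 (95% CI -0.13 to 0.46), and 0.28 without that array. Sdhc, a membrane anchor that helps bind ubiquinone, was at 14.13, 14.26, 13.72 and 14.14 in compound 177 muscle, against 13.83, 13.73, 13.92 and 14.15 in control muscle. Here compound 177 replicate 3 was the lowest value of all and the groups overlapped across their whole range (difference 0.15, 95% CI -0.18 to 0.49, and 0.27 without that array). Sdhd, the other anchor, was at 13.41 to 13.55 in compound 177 muscle and 13.27 to 13.64 in control muscle, a difference of 0.04.

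In complex III the values of both groups lay over each other. Uqcrh, the hinge protein that helps cytochrome c dock, was at 15.20, 15.25, 15.02 and 15.03 in compound 177 muscle, against 15.10, 15.10, 14.82 and 15.03 in control muscle. Replicates 1 and 2 of the treated group were the 2 highest arrays, and control replicate 3 the lowest (difference 0.11, 95% CI -0.14 to 0.37). Uqcrb, a small subunit near the ubiquinone site, was at 14.75, 14.91, 14.80 and 14.84 in compound 177 muscle, against 14.75, 14.71, 14.64 and 14.88 in control muscle, a difference of 0.08. Only compound 177 replicate 2 exceeded the highest control. Cycs, the somatic cytochrome c that shuttles electrons to complex IV, was at 15.34, 15.11, 15.14 and 15.19 in compound 177 muscle, against 15.18, 14.94, 15.19 and 15.06 in control muscle. Compound 177 replicate 1 was above every control, the other treated values were within the control range, and the difference was 0.10 (95% CI -0.14 to 0.35).

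The remaining members of complex III had differences next to 0. Uqcrc1, a core subunit on the matrix side, was at 13.20, 13.39, 13.56 and 13.80 in compound 177 muscle, against 13.37, 13.23, 13.80 and 13.67 in control muscle. The lowest array was a treated one and the highest values of the groups were equal (difference -0.03, 95% CI -0.42 to 0.36). Uqcrfs1, the Rieske iron-sulfur protein, was at 14.54, 14.80, 14.44 and 14.88 in compound 177 muscle, against 14.58, 14.47, 14.80 and 14.84 in control muscle. Each group held a pair of low and a pair of high arrays, and both means were 14.67 (95% CI of the difference -0.32 to 0.31). With the arrays scaled to equal medians in place of quantile normalization both differences were above 0, at 0.05 for Uqcrc1 and 0.07 for Uqcrfs1.

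Complex IV held the members that came nearest to separation outside complex V. Cox7b, a small subunit in the membrane, was at 14.82, 14.82, 14.63 and 14.87 in compound 177 muscle, against 14.49, 14.48, 14.58 and 14.77 in control muscle. Replicates 1, 2 and 4 of the treated group were above every control, and replicate 3 lay between them (difference 0.21, 95% CI -0.05 to 0.46). Cox5b, the zinc-binding subunit on the matrix side, was at 14.02, 14.14, 13.95 and 14.07 in compound 177 muscle, against 13.91, 13.71, 13.91 and 13.96 in control muscle. The overlap came from a single treated array, again replicate 3, which lay just under the highest control (difference 0.18, 95% CI -0.06 to 0.41). Cox4i1, the largest nuclear-encoded subunit, was at 14.56, 14.57, 14.42 and 14.75 in compound 177 muscle, against 14.46, 14.31, 14.38 and 14.51 in control muscle, with the same treated array within the control range (difference 0.16, 95% CI -0.09 to 0.41). Cox5a, the partner of Cox5b at the matrix side, ran from 14.24 to 14.73 in compound 177 muscle and from 14.15 to 14.54 in control muscle (difference 0.09).

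Cox6c, another small subunit, had the largest difference of complex IV and also a wide spread. Its level was 9.40, 9.77, 8.61 and 8.93 in compound 177 muscle, against 8.66, 9.38, 8.46 and 8.38 in control muscle. Each treated array was above the control of the same number, but control replicate 2 exceeded treated replicates 3 and 4, so the groups overlapped. The difference was 0.46 (95% CI -0.19 to 1.10), 0.26 without compound 177 replicate 2 and 0.68 without control replicate 2. Deviations from the group mean correlated at 0.12 to 0.47 between arrays of the same number. Such arrays also share the array set described further on, and the part of number and set was not tested. With the number as a block Cox6c was the 1 member of 32 with an unadjusted limma p below 0.05, against 6.43% of all probes. This share was 657 probes, compared with 396 without the block. The limma adjusted p of Cox6c was then 0.7445. With the array sets as a block Cox6c was again the 1 member of 32, against 5.48% of all probes. Cox7a2l, a factor that joins complexes III and IV into supercomplexes, was at 10.78, 10.89, 10.77 and 10.82 in compound 177 muscle, against 10.54, 10.55, 10.76 and 10.82 in control muscle. Its treated values were alike, whereas the controls formed a low pair (replicates 1 and 2) and a high pair (difference 0.15, 95% CI -0.10 to 0.39).

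**Figure D2:**
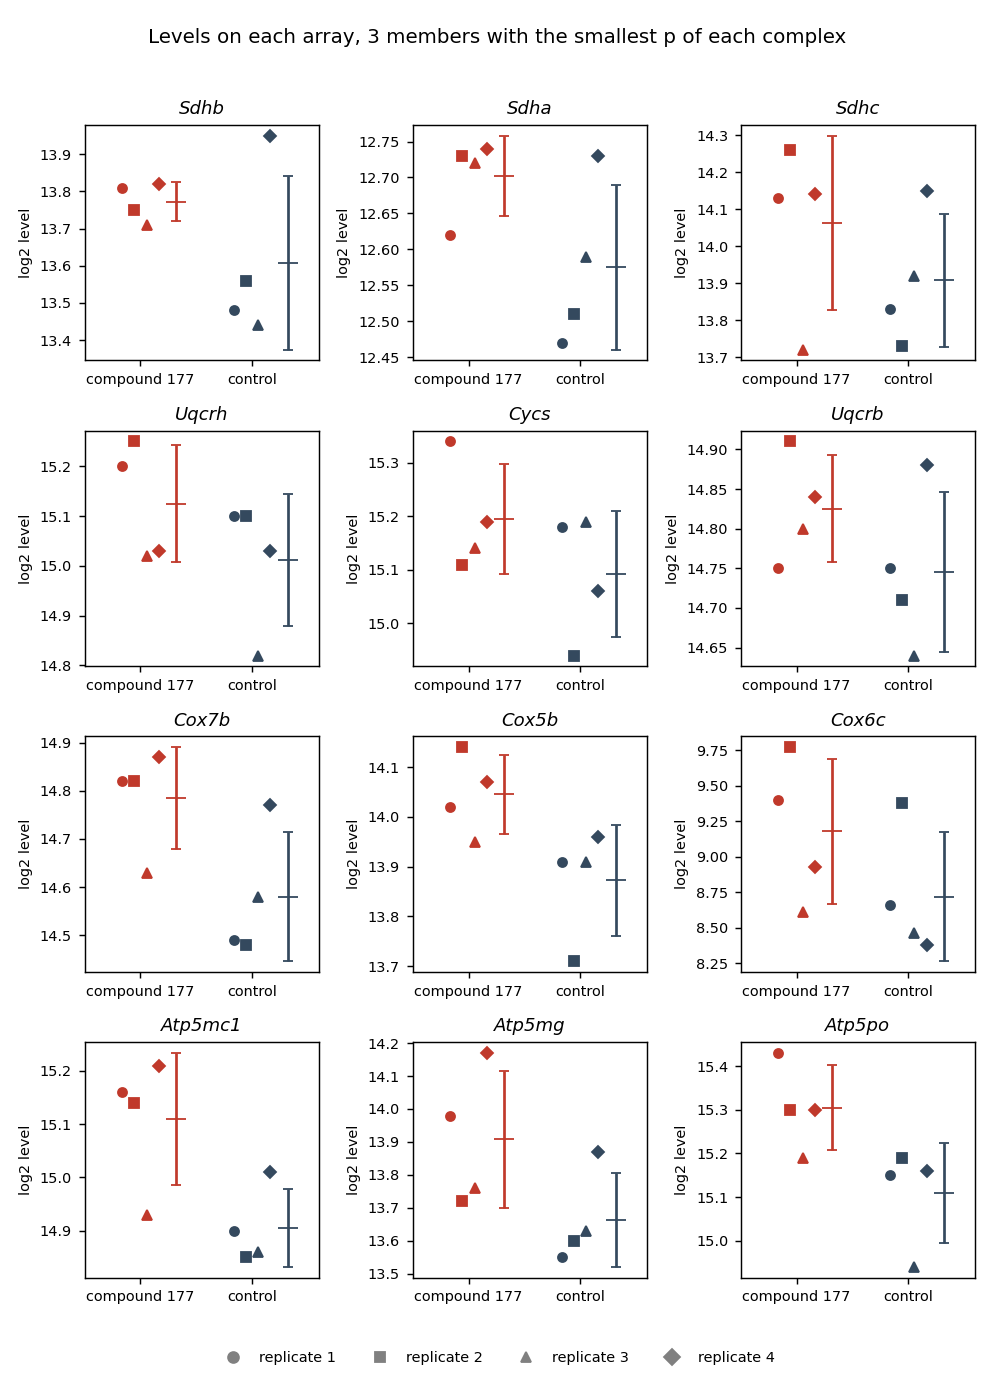
Log2 level on each array (y axis, a range of its own per panel) for the 3 members with the smallest p of each complex, compound 177 left and control right, with the replicate shown by the marker and bars for the mean and SD of 4 rats. No panel separates the groups, and compound 177 replicate 3 (triangle) lies within the control range for Cox7b (14.63), Cox5b (13.95) and Atp5mc1 (14.93).

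Subunits 6a and 8 of complex IV exist as a muscle isoform and a widely expressed one, and the pairs were set side by side. Cox6a2, the heart and muscle isoform, was at 14.70, 14.94, 14.82 and 14.86 in compound 177 muscle, against 14.71, 14.87, 14.78 and 14.78 in control muscle. Array numbers 1 and 2 were the lowest and the highest of each group, and the difference was 0.04 (95% CI -0.19 to 0.28). Its widely expressed partner Cox6a1 was at 12.63, 12.81, 12.35 and 12.70 in compound 177 muscle, against 12.42, 12.57, 12.43 and 12.49 in control muscle. Of the treated arrays 3 were above every control and replicate 3 was below every control (difference 0.14, 95% CI -0.13 to 0.42, and 0.08 to 0.24 when compound 177 replicate 2 or 3 was left out). Cox8b, the heart and muscle isoform of subunit 8, was at 14.69, 15.06, 14.47 and 14.66 in compound 177 muscle, against 14.26, 14.75, 14.39 and 14.66 in control muscle. Array number 2 was the highest in each group (difference 0.21, 95% CI -0.16 to 0.57, and 0.09 without compound 177 replicate 2 or 0.12 without control replicate 1). Cox8a, the widely expressed isoform, was at 12.01, 11.92, 11.48 and 11.50 in compound 177 muscle, against 11.50, 11.87, 11.38 and 11.62 in control muscle. Treated replicates 1 and 2 were above every control and replicates 3 and 4 were within the control range (difference 0.14, 95% CI -0.23 to 0.51, and 0.04 without compound 177 replicate 1 or 0.23 without control replicate 2). Each of these intervals included 0, and a shift between isoforms was not tested.

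In ATP synthase the 3 genes of subunit c encode the same mature protein of the rotor ring and differ in their import signals. Atp5mc1 was at 15.16, 15.14, 14.93 and 15.21 in compound 177 muscle, against 14.90, 14.85, 14.86 and 15.01 in control muscle. Again 3 treated arrays were above every control and replicate 3 was between controls (difference 0.21, 95% CI -0.03 to 0.45). Atp5mc2 was at 13.11, 12.86, 13.03 and 13.23 in compound 177 muscle, against 12.92, 12.86, 12.68 and 13 in control muscle. Here replicate 2 was the treated array inside the control range (difference 0.19, 95% CI -0.08 to 0.47). Atp5mc3 was at 5.77, 5.95, 5.54 and 5.93 in compound 177 muscle, against 5.73, 6.08, 5.71 and 5.65 in control muscle. Its uncorrected intensity was 109.0 to 153.0 in treated and 116.5 to 139.8 in control arrays, close to the median probe, so the probe gives little room to see a change. The difference was 0.01 (95% CI -0.31 to 0.32), and it was -0.02 with median scaling.

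The alpha and beta subunits of the catalytic head gave signals at the top of the intensity range, and their differences were next to 0. Atp5f1a, the alpha subunit, was at 15.60, 15.29, 15.41 and 15.51 in compound 177 muscle, against 15.58, 15.34, 15.58 and 15.41 in control muscle. The groups covered the same range (difference -0.02, 95% CI -0.28 to 0.24, and 0.03 with median scaling). Atp5f1b, the catalytic beta subunit, was at 15.48, 15.36, 15.45 and 15.45 in compound 177 muscle, against 15.60, 15.35, 15.51 and 15.45 in control muscle, with 1 treated array above the control mean (difference -0.04, 95% CI -0.27 to 0.19). Both gave up to 59744.2 (Atp5f1a) and 53740.0 (Atp5f1b) intensity units, on arrays whose brightest probe read 59774 and 57916. Whether these probes could still show a difference so near the brightest signal was not tested, and both intervals include the members' median of 0.14. The stalk subunits gamma (Atp5f1c) and delta (Atp5f1d), which turn with the ring, differed by 0.13 (95% CI -0.15 to 0.41) and 0.08 (95% CI -0.16 to 0.32).

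The peripheral stalk holds the head still against the turning ring, and its 3 measured members all had positive differences. Atp5po, the subunit that confers oligomycin sensitivity, was at 15.43, 15.30, 15.19 and 15.30 in compound 177 muscle, against 15.15, 15.19, 14.94 and 15.16 in control muscle. The lowest treated array was level with the highest control, and control replicate 3 stood apart at 14.94 (difference 0.19, 95% CI -0.05 to 0.43). Atp5pf, coupling factor 6, ran from 14.01 to 14.32 in compound 177 muscle and from 13.80 to 14.17 in control muscle (difference 0.20). Atp5pd, subunit d, ran from 12 to 12.91 in compound 177 muscle and from 11.96 to 12.31 in control muscle, with a difference of 0.28 (95% CI -0.14 to 0.69).

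The small membrane subunits that help ATP synthase form dimers were more uneven. Atp5mg, subunit g, was at 13.98, 13.72, 13.76 and 14.17 in compound 177 muscle, against 13.55, 13.60, 13.63 and 13.87 in control muscle. All treated arrays were above the 3 lower controls, and treated replicates 1 and 4 also above the highest (difference 0.24, 95% CI -0.06 to 0.55). Atp5me, subunit e, ran from 14.55 to 14.80 in compound 177 muscle and from 14.36 to 14.90 in control muscle (difference 0.13). Atp5mk, also called DAPIT, was at 11.38, 9.47, 10.28 and 10.79 in compound 177 muscle, against 10.63, 10.97, 7.23 and 10.38 in control muscle. Control replicate 3 was far below the other 7 arrays, with an uncorrected intensity of 223.2, against 669.3 in the next lowest array, compound 177 replicate 2. The difference of 0.68 (95% CI -1.05 to 2.40) rests on that array: without control replicate 3 it was -0.18.

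**Figure D3:**
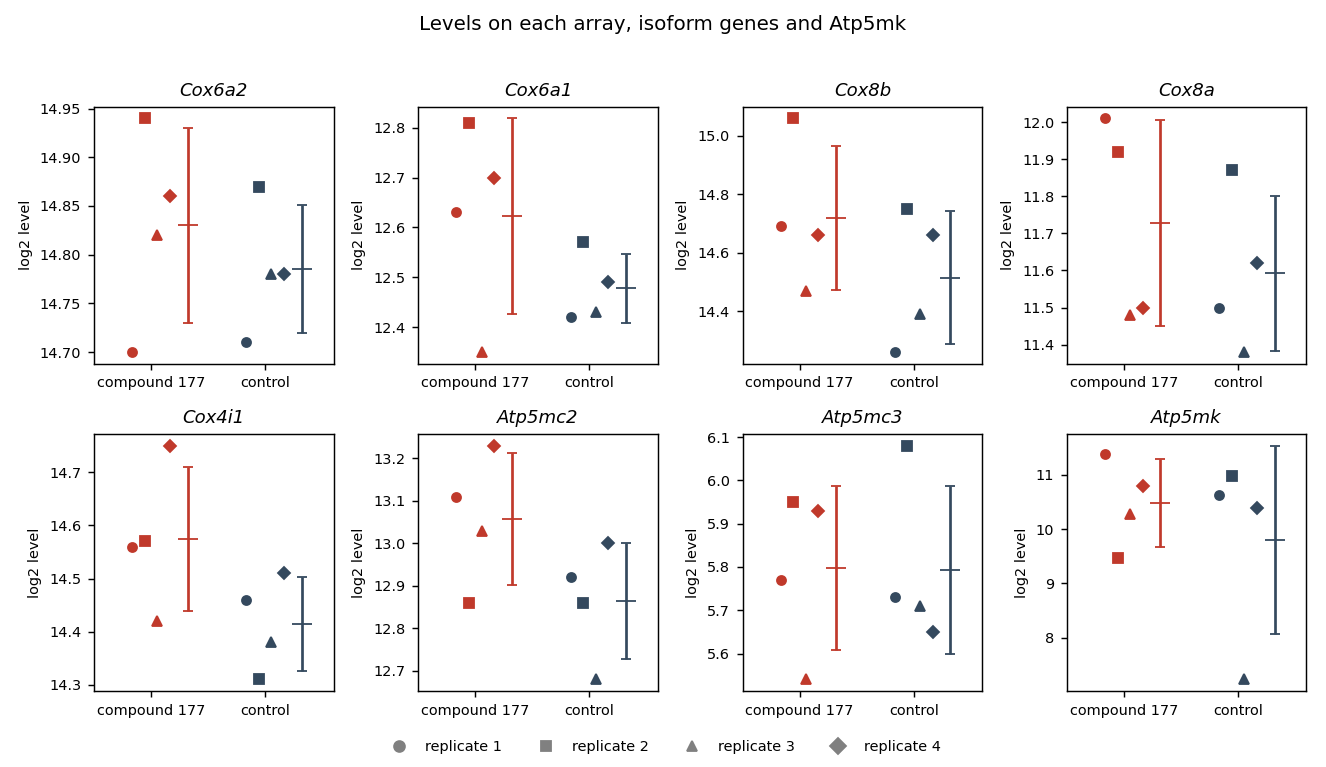
Log2 level on each array (y axis, a range of its own per panel) for isoform genes of complex IV, the other subunit c genes and Atp5mk, compound 177 left and control right, with bars for the mean and SD of 4 rats. Array number 2 is the highest of both groups for Cox6a2 and Cox8b, and control replicate 3 lies at 7.23 for Atp5mk.

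The authors' deposited normalized values fall into 2 sets of arrays, replicates 1 and 2 of both groups (set 1) and replicates 3 and 4 of both groups (set 2), and each set holds both groups. Within set 1 27 of 32 members were above control, against 52.7% of all probes, with a median difference of 0.18. Within set 2 24 members were above control, against 53% of all probes, with a median of 0.07. Both sets gave a difference above 0 for 22 members, against 30.1% of all probes. The difference was larger in set 1 for 25 of 32 members, against 49.7% of all probes. By complex the medians in sets 1 and 2 were 0.23 and 0.02 for complex II, 0.13 and 0.04 for complex III with cytochrome c, 0.27 and 0.07 for complex IV, and 0.17 and 0.13 for complex V. The median of each complex was smaller in set 2 than in set 1, with 2 arrays per group in each set. Whether the complexes differed in this was not tested.

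A fit with treatment, set and their interaction tested whether single members differed between the sets. Of the members 0 of 32, and 0% of all probes, had an adjusted p below 0.05 with limma, and at an unadjusted p below 0.05 there were 0 members, against 3.96% of all probes. The 3 members with the smallest p were Sdhc, Atp5mk and Cox7a2l, each at an adjusted p of 0.9996. Sdhc differed by 0.42 in set 1 and -0.11 in set 2. Atp5mk differed by -0.37 and 1.73, and Cox7a2l by 0.29 and 0.01. For Sdhc the low treated array, replicate 3, and for Atp5mk the low control array, replicate 3, both lay in set 2.

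**Figure D4:**
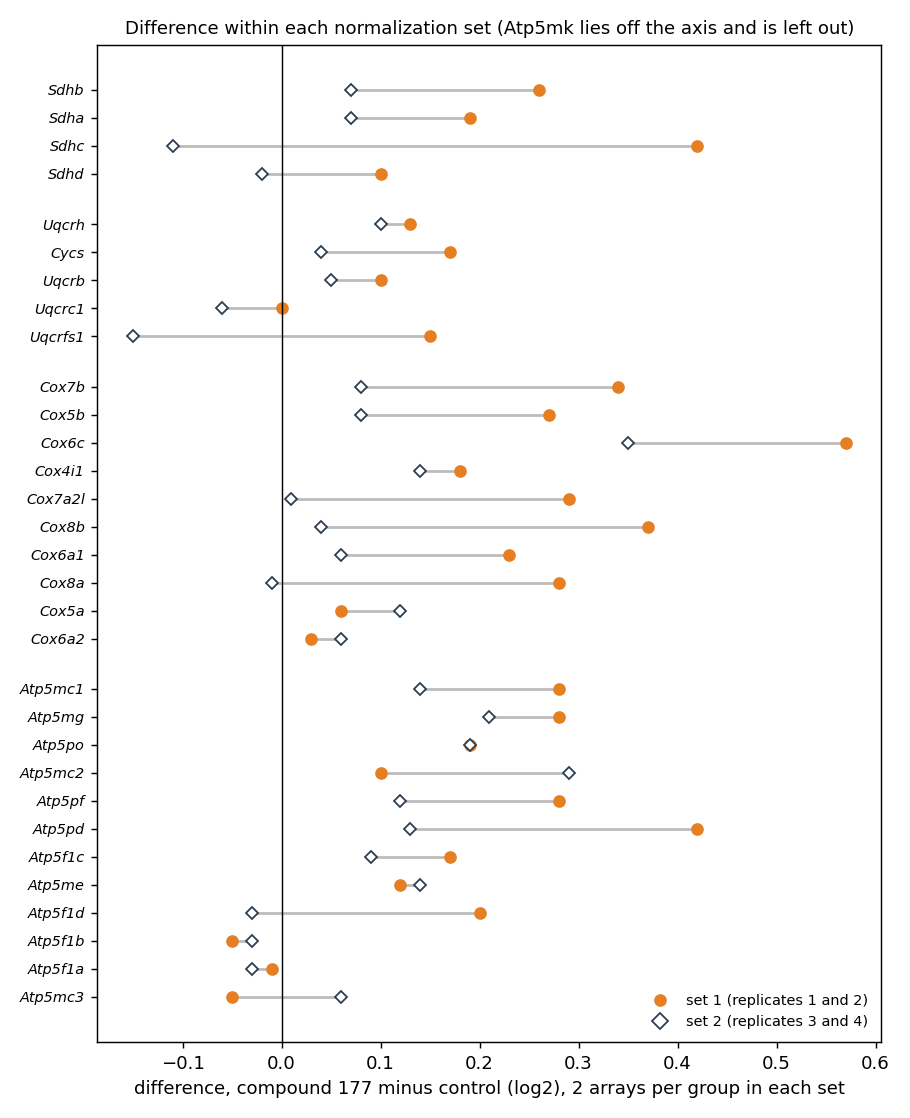
Difference of each tested member, compound 177 minus control (log2, x axis), within set 1 (filled circles) and within set 2 (open diamonds), 2 arrays per group in each set and no error shown. Atp5mk (-0.37 and 1.73) lies off the axis, and for 25 of 32 members set 1 gives the larger difference.

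Seen by array, complex II averaged 0.06, 0.09, -0.02 and 0.12 above its mean over all arrays in compound 177 muscle, against -0.15, -0.18, -0.08 and 0.17 in control muscle. Complex III with cytochrome c averaged -0.03, 0.06, -0.04 and 0.11 in compound 177 muscle, against -0.04, -0.14, 0.02 and 0.06 in control muscle. Treated replicate 3 was below its mean in both complexes, and control replicate 4 was above it. Complex IV averaged 0.10, 0.23, -0.08 and 0.10 in compound 177 muscle, against -0.18, -0.01, -0.13 and -0.04 in control muscle. Complex V averaged 0.19, 0.03, -0.04 and 0.17 in compound 177 muscle, against -0.04, 0.03, -0.34 and 0.00 in control muscle. Each of these complex V values includes Atp5mk, which ran from 9.47 to 11.38 in compound 177 and from 7.23 to 10.97 in control muscle. Averages of complex V without Atp5mk were not computed. In complex IV the treated replicates 1, 2 and 4 were above every control array, and treated replicate 3 was inside the control range.

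Slow-fibre and fibroblast markers varied more between arrays than the members did. All 8 slow-fibre markers were measured and all 8 were lower in compound 177 muscle (median difference -1.32). Their summed signal ran from 13447 to 90425 units in compound 177 muscle and from 22576 to 95761 units in control muscle. Per array their mean deviation was 1.01, -1.12, -1.49 and -0.84 in compound 177 muscle, against -0.90, 1.07, 0.90 and 1.36 in control muscle. Treated replicate 1 and control replicate 1 stood opposite to the rest of their groups, and within set 1 the members differed by a mean of 0.18 while the slow-fibre markers differed by -0.14. Within set 2 these means were 0.12 and -2.30, where the members' mean includes the 1.73 of Atp5mk. The members' median within set 2 was 0.07. The 6 tested fast-fibre markers of the fixed list were all lower, from -0.29 (Myh4) to -0.01 (Tnnc2), with a median of -0.09. Their summed signal was 205454 to 220537 units in compound 177 and 219506 to 241859 units in control muscle. Myh2, a fast myosin counted only with the skeletal muscle markers, was higher, with a difference of 0.10. Over all tested probes 53.4% were above control. Fibroblast markers were lower in 6 of 6 (median -0.56), with a summed signal of 19307 to 67311 units in compound 177 and 35620 to 71999 units in control muscle. The part of these cells in the members' values was not tested.

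**Figure D5:**
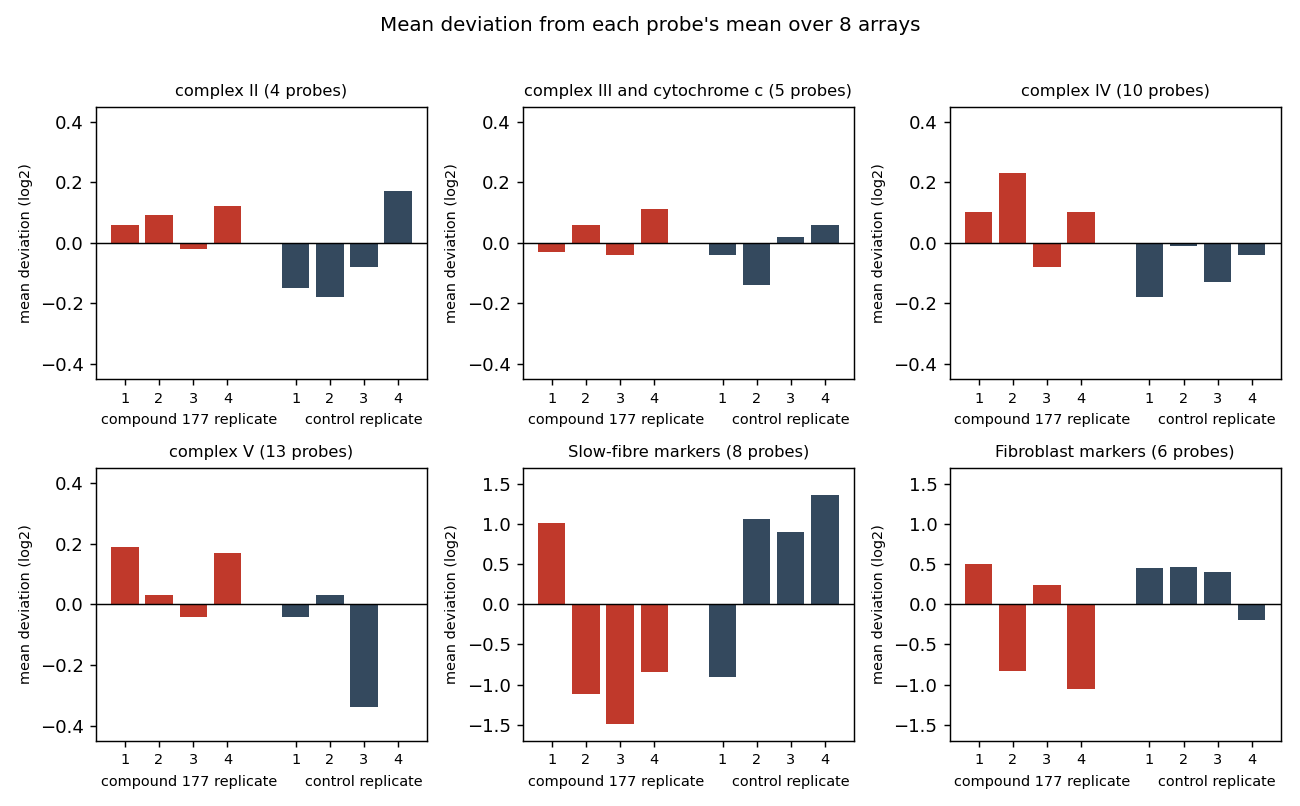
Mean deviation of each list from its probes' mean over 8 arrays (log2, y axis) on each array (x axis), compound 177 replicates 1 to 4 left and control replicates 1 to 4 right, for the 4 complexes and for slow-fibre and fibroblast markers, which have a wider axis. Slow-fibre markers reach -1.49 and 1.36, whereas no complex goes beyond -0.34 and 0.23. The -0.34 is that of complex V on control replicate 3 and includes the low Atp5mk value of that array.

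The genes that build these complexes gave the same kind of small values. Of 16 tested assembly factors of complex IV, 14 were above control (median 0.15), and of 5 of complex V all 5 were (median 0.11). The tested factors of complexes II and III, 2 each, were all above control (medians 0.11 and 0.13). In these lists 0 genes passed the test in either direction. Higd1a, a small inner membrane protein tied to complex IV, was at 9.50, 9.95, 8.43 and 8.97 in compound 177 muscle, against 8.63, 8.93, 8.35 and 8.57 in control muscle. Replicates 1 and 2 of the treated group were the highest arrays (difference 0.59, SE 0.29). Coa3, which helps make the complex IV core, differed by 0.18 (SE 0.10), and Fmc1 and Atpaf2, both needed to assemble ATP synthase, by 0.31 (SE 0.19) and 0.11 (SE 0.11). Sdhaf3 and Sdhaf2, which help mature complex II, differed by 0.17 (SE 0.18) and 0.04 (SE 0.13). Ttc19 and Bcs1l, which act on the Rieske step of complex III, differed by 0.25 (SE 0.22) and 0.01 (SE 0.12).

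Other genes of the chain and its regulators were counted in the same fit. Of 26 tested complex I subunits 24 were above control (median 0.16) and 0 passed. Ndufb9 and Ndufb11, accessory subunits of the membrane arm, had the smallest p of that list, with differences of 0.29 and 0.28 (SE 0.11 each). These were 2 of the 5 complex I subunits (with Ndufa8, Ndufb3 and Ndufs3) whose groups did not overlap, all with compound 177 higher, against 1.7% of all probes. Of 9 tested partners of cytochrome c and ubiquinone 6 were above control (median 0.21) and 0 passed, and Dhodh, which feeds electrons from pyrimidine synthesis to ubiquinone, differed by 0.24 (SE 0.10), with groups that did not overlap. Higd1a was also in that list. Of 13 tested regulators 8 were above control (median 0.05) and 0 passed. Tfb1m, which methylates the mitochondrial ribosomal RNA, was at 6.07, 6.19, 6.49 and 6.44 in compound 177 muscle, against 6.01, 5.60, 6.03 and 6.01 in control muscle. The groups did not overlap (difference 0.38, SE 0.15), at an adjusted p of 0.9999 with limma. Tefm, the elongation factor of mitochondrial transcription, differed by 0.28 (SE 0.11).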

How the data were processed

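Total RNA of thigh muscle from 8 rats was hybridized to Illumina bead arrays, per the labels' protocols. The authors deposited a table with a linear intensity and a detection p-value per probe and array, not normalized between arrays, per the file headers. Their deposited normalized intensity table, identical to the series' value table (largest difference 0), was used for the array sets and as an alternative. The labels and headers name neither the scanner software nor a background step. Of 22523 probes, 13793 have a gene symbol in the platform annotation and 8730 have none and are unnamed here.

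The neqc function of limma (version 3.58.1, R version 4.3.3) turned the deposited values into log2 levels, with an offset of 16 and with negative controls modelled through the detection p-values. Probes entered the test when 4 or more of the 8 arrays had a detection p under 0.05 (10212 probes). Groups were compared with lmFit and eBayes without covariates. The test was checked on simulated data with independent arrays and added changes larger than the members' median difference. That check does not cover differences as small as that median, or arrays that track each other by number. The number of arrays limits precision.

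Members and gene lists were chosen with earlier results of these data known. Values on every array are given for the 3 members with the smallest p per complex, any with an unadjusted p below 0.05 or separated groups, tissue isoforms and subunit c genes, members below control, members with an outlying array and the 3 with the smallest interaction p, and Cox4i1. Of each further list the 2 genes with the smallest p are named. Labels do not say that replicate numbers pair the rats, but deviations from the group mean correlated at 0.24, 0.47, 0.12 and 0.43 between same-numbered arrays, so the blocked fit is given where it changes a count. Alternatives were other background steps, scaling, filters, blocks, array weights and left-out arrays.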

Additional observations from a re-analysis of the deposited data

Results flagged for a closer look

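Among 64 groups of 4 values (32 members in 2 groups), 2 held a value whose gap to its neighbour took more of the group's range than Dixon's 95% critical value allows. Chance gives this in about 1 of 20 groups, here 3.2. Both were the lowest value of the control group, and both lay on control replicate 3. Atp5mk was at 7.23 on that array, with a gap of 0.842 of the range, and Atp5po was at 14.94, with a gap of 0.861. For Atp5po the gap is small in size, since all 4 controls lay between 14.94 and 15.19.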

How the results depend on the processing

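No member was called under any of the 20 other settings tried, and 26 to 30 of 32 members were above control except within set 2 (24). The median difference of the members was 0.14 in the main fit and 0.21 with median scaling. This shift, not the offset itself, was set against the spread of 0.068 between arrays of a group, and was about as large. The median difference was 0.11 to 0.18 in the other settings that used over 4 arrays, 0.17 within set 1 and 0.08 within set 2. It ran from 0.12 to 0.18 without single arrays, where 0 members were called and 26 to 30 were above control. With the replicate block, 0 probes were called, the count at an unadjusted p below 0.05 was 657 in place of 396, and no member's call changed. That count was 260 without control replicate 3 and 126 with median scaling. The interaction with set gave 1 called probe with median scaling, which was no member, and 0 otherwise. With median scaling the sign turned for Uqcrc1 (0.05), Uqcrfs1 (0.07), Atp5mc3 (-0.02) and Atp5f1a (0.03). Within set 1 it turned for Uqcrfs1 (0.15), Atp5mc3 (-0.04) and Atp5mk (-0.37), and within set 2 for Sdhc (-0.11), Cox8a (-0.01), Sdhd (-0.02) and Atp5f1d (-0.03). Without single arrays, Uqcrc1 ran from -0.13 to 0.07, Uqcrfs1 from -0.08 to 0.07, Atp5mc3 from -0.05 to 0.10, Atp5f1a from -0.07 to 0.03 and Atp5mk from -0.18 to 1.07. The cause of these turns was not tested, and none of these values was called. Leaving out 1 array also moved Uqcrh (0.05 without control replicate 3), Cycs (0.05 without control replicate 2), Uqcrb (0.04 without control replicate 3), Cox4i1 (0.10 without compound 177 replicate 4), Cox6a2 (0.01 without compound 177 replicate 2) and Atp5f1b (-0.08 without control replicate 2). Signal over background limits Atp5mc3 and Cox8c.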

Other observations

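Cox6c and Higd1a were highest on the same array, compound 177 replicate 2, at 9.77 and 9.95, and both were above 9 on treated replicate 1. The cardiac myosin gene Myh6 ran from 5.41 to 8.16 in compound 177 muscle, against 10.16, 12.25, 6.51 and 8.04 in control muscle. Myh6 was above background on 8 of 8 arrays, and the other heart markers Nppa, Myl7 and Nppb on 1, 3 and 6.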
